A study of Homo sapiens with 12 samples.

Results

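Matrix metalloproteinases and their tissue inhibitors were followed in the gallbladder cancer cell line SNU308 after knockdown of CEACAM6, a lipid-anchored adhesion glycoprotein of epithelial cells. The group holds 10 of the 60617 genes quantified, namely MMP1, MMP7, MMP10, MMP13, MMP14, MMP15, MMP28, TIMP1, TIMP2 and TIMP3. They were chosen by family, with MMP13 taken because its level differed between the siRNAs used for the knockdown, so the comparison of these siRNAs is given for the 10 genes as a description without a test. All 10 passed the filter on low counts that left 17620 genes for testing.

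Matrix metalloproteinases are zinc-dependent proteases that cleave collagens, laminins and other matrix proteins, and many are secreted as inactive proenzymes. The tissue inhibitors of metalloproteinases, or TIMPs, block the active site of these enzymes. In carcinomas, where part of the protease is made by tumor cells and part by stromal cells, the balance of both families is known to shape matrix turnover and invasion.

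RNA sequencing was performed on 12 samples in 3 groups of 4, from 4 separate experiments. One group received a non-targeting control siRNA (NTC), and the others received siCEACAM6#2 or siCEACAM6#3, each at 25 nM. RNA was taken on day 3. All groups were the same cell line with unedited genotype under the same culture conditions, and every sample, NTC included, was transfected, so no untransfected cells were compared. The knockdown was transient and was made in 1 cell line, without stromal or immune cells.

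The siRNAs are defined by their target sites in CEACAM6, which are shown 5′ to 3′ as listed by the study because the comparison of siRNAs below rests on them. Capitals mark the 7 bases that pair with positions 2 to 8 of the guide strand, its seed.
siCEACAM6#2: cagccatgcaatgCCAAATAa
siCEACAM6#3: ctcctaatagtcaTACTAGTa
Both sites matched the last exon, exon 6 of 6, in the 3′ untranslated region of CEACAM6 on the plus strand of GRCh38, at chr19:41771369-41771389 and chr19:41771611-41771631. CEACAM6 reached 524.1, 568.9, 595.6 and 618.6 on the counts-per-million scale (CPM) in the NTC samples. It was 353.1, 343, 285.8 and 328.6 CPM with siCEACAM6#2, and 423.3, 386.5, 424.4 and 438 CPM with siCEACAM6#3. Both knockdown groups lay below all NTC samples, at 56.8% and 72.5% of the NTC mean. On the log2 scale it fell by 0.82 with siCEACAM6#2 (limma-voom adjusted p = 2.71e-05) and by 0.46 with siCEACAM6#3 (adjusted p = 0.0151). The call with siCEACAM6#3 did not hold when NTC replicate 2, 3 or 4 was left out (limma-voom adjusted p = 0.0663, 0.0561 and 0.0674), nor when siCEACAM6#3 replicate 3 was (adjusted p = 0.0792). For either siRNA an exact permutation test (two-sided, on log2 CPM) returned p = 0.0286, below which a design of 4 against 4 cannot go.

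Each library held between 21799476 and 22059456 estimated counts. Of the epithelial markers, 6 of 6 had a mean of at least 1 TPM, the transcripts-per-million level, which is corrected for length, with summed levels of 7748 to 8817 TPM per sample. Of 5 fibroblast, 4 leukocyte and 3 endothelial markers, COL1A1, CD68 and VWF reached a mean of 1 TPM, and no other did. Their classes summed to 2.621 to 4.748, 29.52 to 62.78 and 1.573 to 2.908 TPM per sample, in that order. The share of counts from mitochondrial genes was 11.83% to 12.89% in NTC, 12.19% to 13.33% with siCEACAM6#2, and 12.48% in siCEACAM6#3 replicate 1 against 14.31% to 15.34% in its other replicates, and its part in the results with siCEACAM6#3 was not tested. In bulk RNA, fewer cells making a transcript and less transcript per cell cannot be told apart.

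The 10 genes spanned a wide range of levels per length. In NTC, MMP14, the collagenolytic membrane-type protease also known as MT1-MMP, had the highest level at 189.8 TPM ± 1.81 (SD, n = 4). MMP1, the interstitial collagenase, followed at 125.4 TPM ± 13.9, and MMP28, or epilysin, a protease of epithelia, at 93.43 TPM ± 7.54. TIMP1, a secreted inhibitor, was at 66.29 TPM ± 2. The NTC samples of these genes did not overlap with one another.

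MMP15, a second membrane-type protease, was at 41.32 TPM ± 1.91. TIMP2, the inhibitor that takes part in the activation of the gelatinase MMP2 by MMP14, was at 29.57 TPM ± 3.38, and MMP13, collagenase 3, at 27.2 TPM ± 2.11. The levels of TIMP2 (26.81 to 34.36 TPM) and MMP13 (24.61 to 29.51 TPM) overlapped between NTC samples. All other neighbours in the order did not overlap in NTC.

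MMP7, or matrilysin, a small protease of glandular epithelium, was at 7.778 TPM ± 0.948. MMP10, stromelysin 2, was at 3.867 TPM ± 1.28, and TIMP3, an inhibitor that binds to the matrix, at 1.685 TPM ± 0.156. The order of mean TPM was identical in the 3 groups. MMP1 and MMP28, separate in NTC, overlapped in range with siCEACAM6#2 (79.45 to 120.1 against 85.68 to 99.98 TPM) and with siCEACAM6#3 (89.29 to 152.3 against 98.49 to 127.3 TPM).

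**Figure D1:**
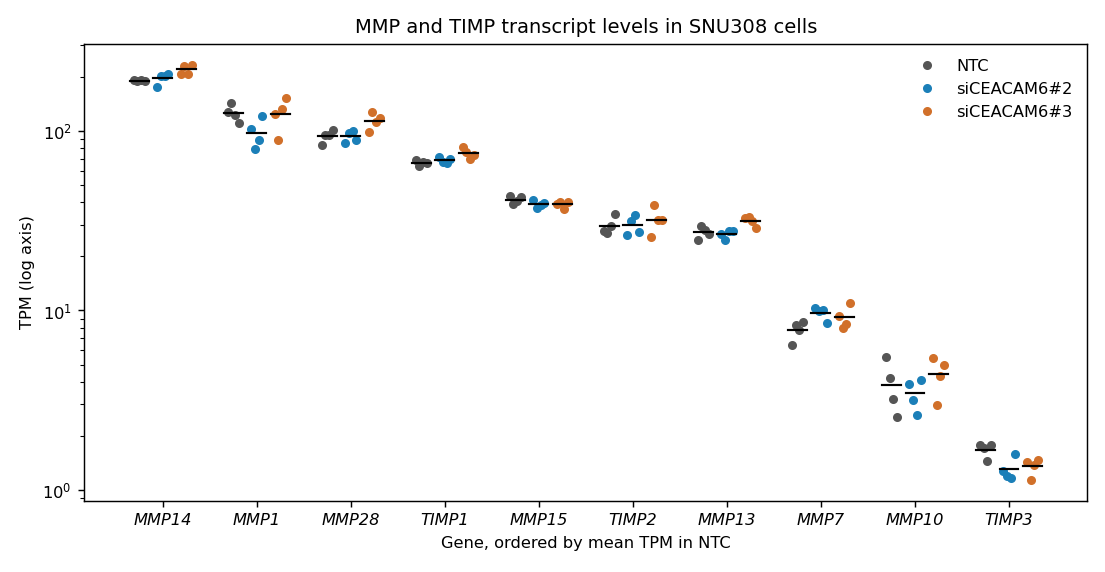
TPM on a log axis for the 10 genes in each of the 12 samples, with 4 points per group (grey NTC, blue siCEACAM6#2, orange siCEACAM6#3) and a black line at each group mean. The genes run from MMP14, at 189.8 TPM in NTC, to TIMP3, at 1.685 TPM, in the same order in each group.

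The other metalloproteinase genes contributed little. Of 16 further MMP genes in the files, 13 had a mean below 1 TPM over the 12 samples, and MMP8, MMP20, MMP26 and MMP27 had 0 counts in all 12 samples, which allows up to 0.136 to 0.138 CPM per library (3 counts, counting error only). MMP17, MMP2 and MMP11 had the highest means, at 3.31, 2.4 and 2.25 TPM. The gelatinase MMP9 had 0 to 8 counts per sample. The 7 MMP genes described here held 97.6% to 98.3% of the summed MMP TPM in the NTC samples.

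MMP1, MMP7, MMP10 and MMP13 lie in a cluster of 9 MMP genes, all on the minus strand, at chr11:102520508-102955732 (GRCh38), a span of 435.2 kb. MMP1 occupies chr11:102789401-102798160, and MMP10 chr11:102770502-102780628 next to it. MMP13 lies at one end at chr11:102942995-102955732, and MMP7 at the other at chr11:102520508-102530750. Neighbours in the cluster differed in level. MMP1 had 2547 to 4964 counts per sample and MMP10 70 to 150, while MMP3 on the other side of MMP1 had 0 to 3 and MMP12 had 0 to 4.

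**Figure D2:**
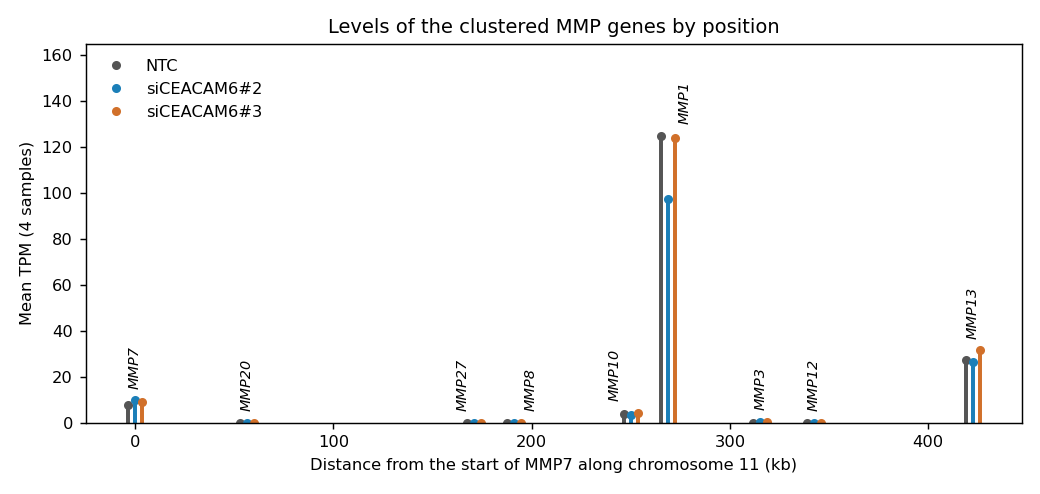
Mean TPM (4 samples per group) of the 9 clustered MMP genes against distance in kb from the lower coordinate of MMP7, with bars for NTC, siCEACAM6#2 and siCEACAM6#3. MMP1 and MMP13 stand out at 125.4 and 27.2 TPM in NTC, and MMP20, MMP27 and MMP8 are at 0.

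MMP14 lies at chr14:22836560-22849041 and MMP15 at chr16:58025754-58046901, both on the plus strand. MMP28 is at chr17:35756249-35795707 on the minus strand, overlapping C17orf50 on the opposite strand. TIMP2, at chr17:78852977-78925387 on the minus strand, shares its strand with the overlapping CEP295NL. TIMP1, at chrX:47582408-47586789, and TIMP3, at chr22:32801705-32863041, both on the plus strand, lie within SYN1 and SYN3 on the opposite strand. Whether the quantification used strand is not given in the sources used here, so reads of these overlapping pairs may not be fully separated.

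Each siRNA was compared with NTC to ask whether partial knockdown of CEACAM6, to 56.8% and 72.5% of the NTC mean, changed the protease and inhibitor genes. The comparisons share the NTC samples. None of the 10 genes passed an adjusted p of 0.05 with siCEACAM6#2, where 1.25% of all tested genes did (limma-voom). None passed with siCEACAM6#3, against 0.0681% of all genes, or for the average of both siRNAs, against 0.227%. At an unadjusted p under 0.05 the counts were 4, 6 and 4 of 10, against 13.6%, 12.5% and 12.9% of all genes, and since the genes were picked with results known, nothing is read from these shares.

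Other tools gave partly different counts. With siCEACAM6#2, edgeR and DESeq2 called 0 of the 10 genes, against 1.44% and 3.95% of all genes. With siCEACAM6#3, edgeR called 0 (0.0738% of all genes), whereas DESeq2 (1.72%) and limma-voom with sample weights (2.17%) each called MMP13, MMP14 and TIMP1 as higher. Without siCEACAM6#3 replicate 1, limma-voom called MMP13, MMP14 and MMP28 as higher with siCEACAM6#3 (1.44% of all genes) and MMP14 for the average of both siRNAs (1.06%). DESeq2 and sample weights also called MMP14 for the average, against 2.63% and 5.1% of all genes.

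**Figure D3:**
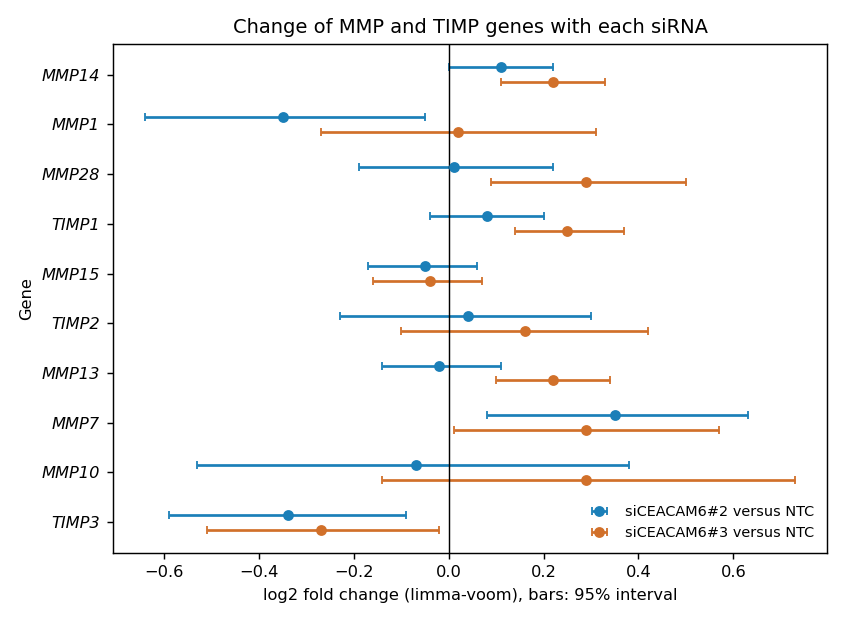
Log2 fold change against NTC of the 10 genes with siCEACAM6#2 (blue) and siCEACAM6#3 (orange), with bars for 95% intervals from limma-voom, in the order of level. Values lie between -0.35 and 0.35, and no gene passed an adjusted p of 0.05 in this fit.

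MMP1 showed the lowest value with siCEACAM6#2. It was 175.7, 199.9, 179.3 and 156.9 CPM in NTC, 147.9, 117.5, 128.3 and 168.7 CPM with siCEACAM6#2, and 174, 132.3, 195.5 and 232.4 CPM with siCEACAM6#3. With siCEACAM6#2, 3 samples lay below all NTC samples and replicate 4 lay within their range, while the siCEACAM6#3 samples spread to both sides of NTC. The log2 fold changes were -0.35 ± 0.14 (SE) with siCEACAM6#2 (limma-voom adjusted p = 0.269) and 0.02 ± 0.14 with siCEACAM6#3 (adjusted p = 0.965), the latter near 0 and with a sign that depended on the scaling.

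MMP13, the other collagenase, was steady in NTC and with siCEACAM6#2. Its values were 37.81, 43.36, 42.25 and 43.03 CPM in NTC and 40.05, 41.21, 42.04 and 41.16 CPM with siCEACAM6#2. With siCEACAM6#3 it was 45.92, 50.42, 49.26 and 48.18 CPM, above every sample of both other groups. The log2 fold change against NTC was -0.02 ± 0.06 with siCEACAM6#2 (limma-voom adjusted p = 0.944), with a 95% interval of -0.14 to 0.11, and 0.22 ± 0.06 with siCEACAM6#3 (adjusted p = 0.147). The siCEACAM6#3 samples also entered the difference for which MMP13 was chosen, so the last value is not independent of the choice. Without siCEACAM6#3 replicate 1 the value was 0.25 (adjusted p = 0.0449, limma-voom). Of 12 limma-voom fits without 1 sample this was the only call, and adjusted p reached 0.408 in the others. On the TPM scale the siCEACAM6#3 range of 28.63 to 33.25 overlapped the NTC range of 24.61 to 29.51.

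MMP10 was low and variable, with a coefficient of variation of 28.2% in NTC, where it was 6.295, 5.163, 4.175 and 3.194 CPM. It was 3.374 to 5.105 CPM with siCEACAM6#2 and 3.908 to 6.727 CPM with siCEACAM6#3, and the 3 groups overlapped. The log2 fold changes of -0.07 ± 0.22 and 0.29 ± 0.21 had limma-voom adjusted p of 0.931 and 0.582. With 70 to 150 counts per sample, the 95% intervals were -0.53 to 0.38 and -0.14 to 0.73, the widest of the 10 genes.

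MMP7 had higher means with both siRNAs. It was 4.688, 6.054, 5.918 and 6.479 CPM in NTC, 7.792, 7.707, 7.661 and 6.314 CPM with siCEACAM6#2, and 6.817, 6.215, 6.462 and 8.849 CPM with siCEACAM6#3. With siCEACAM6#2, replicates 1 to 3 lay above all NTC samples and replicate 4 within their range. On the log2 scale MMP7 differed from NTC by 0.35 ± 0.13 with siCEACAM6#2 (limma-voom adjusted p = 0.23) and by 0.29 ± 0.13 with siCEACAM6#3 (adjusted p = 0.388).

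MMP14, the most abundant of the 10 genes per length, was the only one of them whose 8 knockdown samples all lay above the 4 NTC samples in CPM, a pattern in either direction shown by 1.61% of all tested genes. It was 373.9, 368.6, 396.7 and 395.9 CPM in NTC, 399.5, 429.3, 421 and 409.2 CPM with siCEACAM6#2, and 409.6, 465, 433.4 and 478.2 CPM with siCEACAM6#3. The margin was small, with the highest NTC sample at 396.7 CPM and the lowest knockdown sample at 399.5 CPM. MMP14 had log2 fold changes of 0.11 ± 0.05 with siCEACAM6#2 (limma-voom adjusted p = 0.365) and 0.22 ± 0.05 with siCEACAM6#3 (adjusted p = 0.134). The average over both siRNAs was 0.16 ± 0.05 (limma-voom adjusted p = 0.127). With siCEACAM6#3 replicate 1 left out the average was 0.19 (adjusted p = 0.0446), with 0.26 for siCEACAM6#3 alone (adjusted p = 0.0236). The other limma-voom fits without 1 sample called neither, with adjusted p up to 0.403 and 0.408.

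The scale mattered for MMP14 in 1 sample. In TPM, siCEACAM6#2 replicate 1 was at 174, below the NTC range of 188.1 to 192.2, while the other knockdown samples lay above it, from 200.3 to 232.7. That sample had 50.69 estimated counts per TPM of MMP14, against 44.02 to 46 in NTC, a ratio that moves with the length of the transcripts the reads were assigned to.

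MMP15, the second membrane-type gene, was close to NTC in both knockdowns. Its ranges were 117.9 to 133.5 CPM in NTC, 119 to 129.2 CPM with siCEACAM6#2 and 117 to 130.4 CPM with siCEACAM6#3. The log2 fold changes of -0.05 (95% interval -0.17 to 0.06) and -0.04 (-0.16 to 0.07) had limma-voom adjusted p of 0.736 and 0.785. Its 12 samples spanned 117 to 133.5 CPM in all.

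MMP28 was higher on average with siCEACAM6#3. It was 97.64, 105, 118.7 and 120.7 CPM in NTC, 98.17, 122.4, 119.1 and 106.8 CPM with siCEACAM6#2, and 110.7, 147.8, 133.8 and 151.3 CPM with siCEACAM6#3. With siCEACAM6#3, replicates 2 to 4 lay above all other samples and replicate 1 lay within the NTC range. For MMP28 the log2 fold changes were 0.01 ± 0.10 with siCEACAM6#2 (limma-voom adjusted p = 0.973) and 0.29 ± 0.10 with siCEACAM6#3 (adjusted p = 0.241). Without siCEACAM6#3 replicate 1 the latter was 0.40 (adjusted p = 0.0336, limma-voom). It was the only call among 12 limma-voom fits without 1 sample, and adjusted p reached 0.544 in the others.

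**Figure D4:**
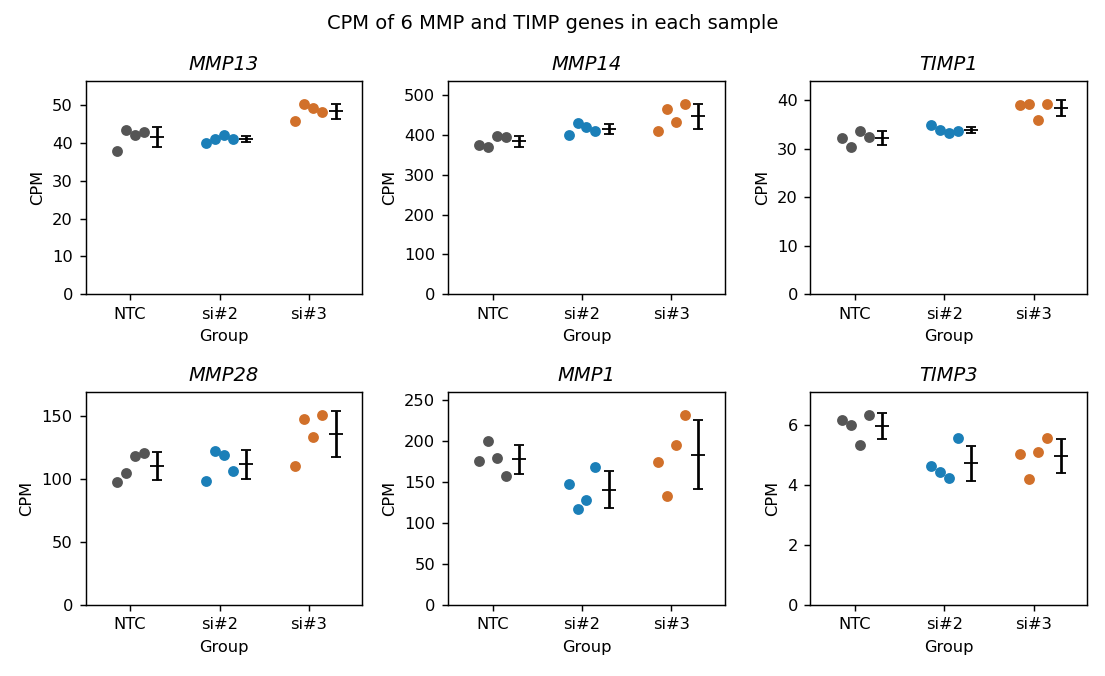
CPM of MMP13, MMP14, TIMP1, MMP28, MMP1 and TIMP3 in each sample (points, 4 per group) with mean and SD (black) for NTC, siCEACAM6#2 (si#2) and siCEACAM6#3 (si#3), each axis starting at 0. With si#3, MMP13, MMP14 and TIMP1 lie above all NTC samples.

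Among the inhibitors, TIMP1 was 32.23, 30.27, 33.67 and 32.49 CPM in NTC, 34.84, 33.92, 33.2 and 33.72 CPM with siCEACAM6#2, and 38.97, 39.26, 35.88 and 39.28 CPM with siCEACAM6#3. In CPM the siCEACAM6#3 samples lay above all other samples, and the siCEACAM6#2 range met that of NTC through 1 NTC sample, replicate 3. In TPM the siCEACAM6#3 range of 69.58 to 81.3 overlapped that of siCEACAM6#2 (65.76 to 71.36) and lay above that of NTC (63.73 to 68.57). The log2 fold changes of TIMP1 were 0.08 ± 0.06 with siCEACAM6#2 (limma-voom adjusted p = 0.598) and 0.25 ± 0.06 with siCEACAM6#3 (adjusted p = 0.109).

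TIMP2 overlapped between all groups, with ranges of 71.44 to 95.73 CPM in NTC, 73.66 to 95.71 CPM with siCEACAM6#2 and 70.46 to 110.4 CPM with siCEACAM6#3. TIMP2 had log2 fold changes of 0.04 ± 0.12 and 0.16 ± 0.12 (limma-voom adjusted p = 0.94 and 0.621). Its coefficient of variation within groups was 13.3% to 17.9%, against 2.02% to 4.39% for TIMP1.

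TIMP3, by contrast with TIMP1, had lower means with both siRNAs. It was 6.161, 6.009, 5.322 and 6.342 CPM in NTC, 4.621, 4.43, 4.241 and 5.553 CPM with siCEACAM6#2, and 5.023, 4.19, 5.087 and 5.572 CPM with siCEACAM6#3. In each knockdown group 3 samples lay below all NTC samples and replicate 4 lay within their range. The log2 fold changes were -0.34 ± 0.12 (limma-voom adjusted p = 0.189) and -0.27 ± 0.12 (adjusted p = 0.37), and the counts behind them were 89 to 139 per sample. TIMP3 is known to inhibit ADAM17 as well as metalloproteinases.

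In ranges of CPM against NTC, MMP14 did not overlap with siCEACAM6#2, 1 of 10 genes against 10.8% of all genes in either direction. With siCEACAM6#3, MMP13, MMP14 and TIMP1 did not overlap, 3 of 10 against 6.27%. The median log2 fold change of the 10 genes was 0.00 with siCEACAM6#2 and 0.22 with siCEACAM6#3, beside medians of 0 for all tested genes. With siCEACAM6#2, 5 of 10 had a positive value, against 50.1% of all genes, and with siCEACAM6#3, 8 of 10 had one, against 48.9%. The genes were picked with results known, MMP13 partly on the siCEACAM6#3 samples, so nothing is read from these shares.

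The siRNAs were then set side by side. The log2 difference of siCEACAM6#3 from siCEACAM6#2 was 0.24 for MMP13, the value for which it was listed, with means of 48.45 and 41.11 CPM. It ranged from 0.22 to 0.27 over all alternative fits. MMP13 was the 1 of 10 genes past the adjusted threshold, as were 1.47% of all genes. Passing was part of the choice of MMP13, so it is not a test of this gene, and nothing is read from this count or share.

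The log2 difference between the siRNAs was positive for 9 of the 10 genes, against 48.8% of all tested genes. It was 0.37 for MMP1 and for MMP10, 0.28 for MMP28, 0.18 for TIMP1, 0.12 for TIMP2, 0.10 for MMP14 and 0.08 for TIMP3. MMP15 was at 0.01, with a sign that flipped under library-size scaling and in TPM, and MMP7 was at -0.07. In CPM, MMP13 and TIMP1 did not overlap between the siRNAs, 2 of 10 against 6.68% of all genes. The remaining 8 overlapped. MMP13 was chosen for this difference and the other genes with results known, so nothing is read from these shares.

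The genes whose log2 CPM followed MMP13 most closely over the 12 samples, among 9889 tested genes with a mean of at least 10 CPM, were KIF13B, DSE, ITGB6, AIG1 and NRP2. Their Pearson r was 0.949, 0.945, 0.939, 0.935 and 0.929, as a description over samples that share scaling and group structure. ITGB6, which encodes an epithelial integrin subunit, was 18.04 to 21.77 CPM in NTC, 18.62 to 22.43 CPM with siCEACAM6#2 and 23.32 to 28.95 CPM with siCEACAM6#3. In CPM, like MMP13, it was thus higher with siCEACAM6#3 than in every other sample, a likeness by which it was picked. In TPM its siCEACAM6#3 range of 7.581 to 9.468 overlapped those of NTC (7.226 to 7.733) and siCEACAM6#2 (6.112 to 7.997). NRP2, a semaphorin co-receptor, overlapped NTC, at 90.86 to 102.1 against 80 to 91.67 CPM.

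A search of the transcripts of the 10 genes for the seed sites of the siRNAs found the siCEACAM6#2 site in 3 genes and the siCEACAM6#3 site in none. The share of all transcripts with either site was not counted, so no difference between the siRNAs is read from this. MMP13 had the siCEACAM6#2 site in its 3′ untranslated region, at chr11:102943780-102943786 on the minus strand, shown in its 5′ to 3′ context with the site in capitals because MMP13 did not overlap between the siRNAs.
MMP13: gactgtaacttCCAAATAaataattttca
The sites in MMP7 and MMP15 were in coding sequence, at chr11:102527791-102527797 and chr16:58045031-58045037. MMP13 in siCEACAM6#2 samples was at 98.8% of the NTC mean, MMP7 at 127% and MMP15 at 96.3%. A match of 7 bases is a description and not evidence of binding.

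Promoter sequences from RefSeq (GRCh38.p14, 250 bases before to 50 after the start) were matched for 6 of the 10 genes, namely MMP7, MMP10, MMP14, MMP15, TIMP1 and TIMP3. Both strands were searched for 3 motifs. The AP-1 motif was spelled TGAGTCA, which 4.95% of 35116 promoters of the same length hold. An ETS motif was spelled AGGAAG, held by 33.6%. The core promoter element was spelled TATAAA, held by 11.5%, and no matches overlapped. MMP7 had the AP-1 motif 67 bases and the core element 30 bases upstream of its start, and ETS motifs at 145 and 169 bases upstream on the reverse strand. MMP10 had the core element 31 bases upstream, and TIMP1 an ETS motif 87 bases upstream. None of the 3 motifs was found in the windows of MMP14, MMP15 and TIMP3. The windows with the AP-1 motif and the core element are shown 5′ to 3′ with the motif in capitals, because the AP-1 factors described next bind such a motif.
MMP7 AP-1 (chr11:102530796-102530825, minus strand): aaacactcaaaTGAGTCAcctatttccaca
MMP7 core element (chr11:102530759-102530788, minus strand): ctgagaagctaTATAAAtttctgcagtcac
MMP10 core element (chr11:102780641-102780670, minus strand): cattgtctctgTATAAAagaaaggccacta

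The transcription factors known to act on MMP promoters gave calls that differed between the siRNAs. Of 16 AP-1, ETS and RUNX genes, all tested, 2 rose with siCEACAM6#2 (JUN and ATF3) in limma-voom and in edgeR, where 1.25% and 1.44% of all tested genes were called. With siCEACAM6#3, 0 passed in limma-voom, edgeR or DESeq2. At an unadjusted limma-voom p under 0.05 there were 5 with siCEACAM6#2 and 2 with siCEACAM6#3, against 13.6% and 12.5% of all genes. DESeq2 called 4 with siCEACAM6#2, against 3.95% of all genes, adding JUNB, a partner in AP-1, and ETS1, a founding ETS factor. JUN was 29.82 to 33.81 CPM in NTC, 42.9 to 55.86 CPM with siCEACAM6#2 and 27.86 to 40.11 CPM with siCEACAM6#3. ATF3, a stress-responsive member of the wider family, was 20.6 to 23.81, 29.24 to 32.47 and 19.57 to 25.61 CPM. Both were above all other samples with siCEACAM6#2, and siCEACAM6#3 overlapped NTC.

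With siCEACAM6#2, log2 fold changes were 0.63 for JUN (limma-voom adjusted p = 0.005) and 0.47 for ATF3 (adjusted p = 0.00574). With siCEACAM6#3 they were 0.12 (adjusted p = 0.658) and 0.00 (adjusted p = 0.992). The difference of siCEACAM6#3 from siCEACAM6#2 was -0.51 for JUN (limma-voom adjusted p = 0.0149) and -0.48 for ATF3 (adjusted p = 0.00669). These calls were lost on the log2 TPM scale, and that on the difference for JUN also without siCEACAM6#2 replicate 3 (limma-voom adjusted p = 0.0626) and in a fit of the compared groups alone (adjusted p = 0.0682). JUNB and ETS1 had 0.22 and 0.25 with siCEACAM6#2 (limma-voom adjusted p = 0.122 and 0.12) and 0.14 and 0.07 with siCEACAM6#3 (adjusted p = 0.419 and 0.734). ETS1 with siCEACAM6#2 passed without siCEACAM6#2 replicate 1 (0.31, limma-voom adjusted p = 0.0455) and with sample weights (adjusted p = 0.0178). In the other limma-voom fits without 1 sample it did not pass, with adjusted p up to 0.384. The most abundant genes of the list, ELF3 and FOSL1, at 264.9 and 112.9 TPM in NTC, had log2 fold changes between -0.10 and 0.14.

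Of 13 genes for matrix substrates 9 were tested, and 0 passed with either siRNA in limma-voom or edgeR's quasi-likelihood test. At an unadjusted limma-voom p under 0.05 there were 2 with siCEACAM6#2 and 3 with siCEACAM6#3, against 13.6% and 12.5% of all genes. DESeq2 called 0 with siCEACAM6#2 and 1 with siCEACAM6#3, against 3.95% and 1.72% of all genes. The gene called was LAMA3, which encodes a laminin alpha chain of epithelial basement membranes. It was 87.28 to 105.2 CPM in NTC, 99.84 to 118.6 CPM with siCEACAM6#2 and 113.1 to 151.6 CPM with siCEACAM6#3. The siCEACAM6#2 samples overlapped NTC and the siCEACAM6#3 samples lay above it. LAMA3 had log2 fold changes of 0.19 (limma-voom adjusted p = 0.341) and 0.38 (adjusted p = 0.127). The latter passed without siCEACAM6#3 replicate 1 (0.43, limma-voom adjusted p = 0.0285) and with sample weights (adjusted p = 0.0181). It did not pass in the other limma-voom fits without 1 sample, with adjusted p up to 0.39. LAMB3, a laminin beta chain gene and the most abundant of these genes at 263.2 TPM in NTC, had values of 0.13 and 0.07 (adjusted p = 0.324 and 0.636), and COL7A1, at 35.13 TPM, had -0.05 and -0.02.

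None of the remaining lists gave a call with either siRNA in limma-voom. Each held 0 or 1 genes at an unadjusted limma-voom p under 0.05, against 13.6% of all genes with siCEACAM6#2 and 12.5% with siCEACAM6#3. In DESeq2 they held 1 call, for LCN2 with siCEACAM6#3 (DESeq2 adjusted p = 0.0471), where 1.72% of all genes were called. Of the other inhibitors, TIMP4 had -0.54 with siCEACAM6#2 (adjusted p = 0.13) and -0.42 with siCEACAM6#3 (adjusted p = 0.306), and the siCEACAM6#2 value was -0.72 without siCEACAM6#2 replicate 1 (adjusted p = 0.0263, limma-voom) and -0.62 with sample weights (adjusted p = 0.0158). TIMP4 was thus lower in mean alongside TIMP3, at 6.146 TPM ± 0.895 in NTC, 4.204 ± 1.2 with siCEACAM6#2 and 4.395 ± 0.686 with siCEACAM6#3. Of 12 limma-voom fits without 1 sample, 1 called TIMP4 with siCEACAM6#2, and adjusted p reached 0.409 in the others. RECK, a membrane-anchored inhibitor, had -0.29 and -0.10, and A2M was not tested. Of the other MMP genes 6 of 16 were tested, and the value with the lowest unadjusted p was -0.40 for MMP11 with siCEACAM6#3 (adjusted p = 0.311).

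Of 7 activators of proenzymes 6 were tested, and PLAT and FURIN, the most abundant at 45.77 and 15.79 TPM in NTC, had log2 fold changes between -0.21 and 0.12. The 5 surface partners were all tested. LCN2, which encodes a lipocalin that binds MMP9, was at 1509 TPM and BSG, the inducer of metalloproteinases known as EMMPRIN, at 661.1 TPM, with values between -0.03 and 0.25. Of 16 ADAM and ADAMTS proteases 10 were tested, and ADAM15 and ADAM10, at 173.9 and 67.79 TPM, had values between -0.10 and 0.14.

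**Figure D5:**
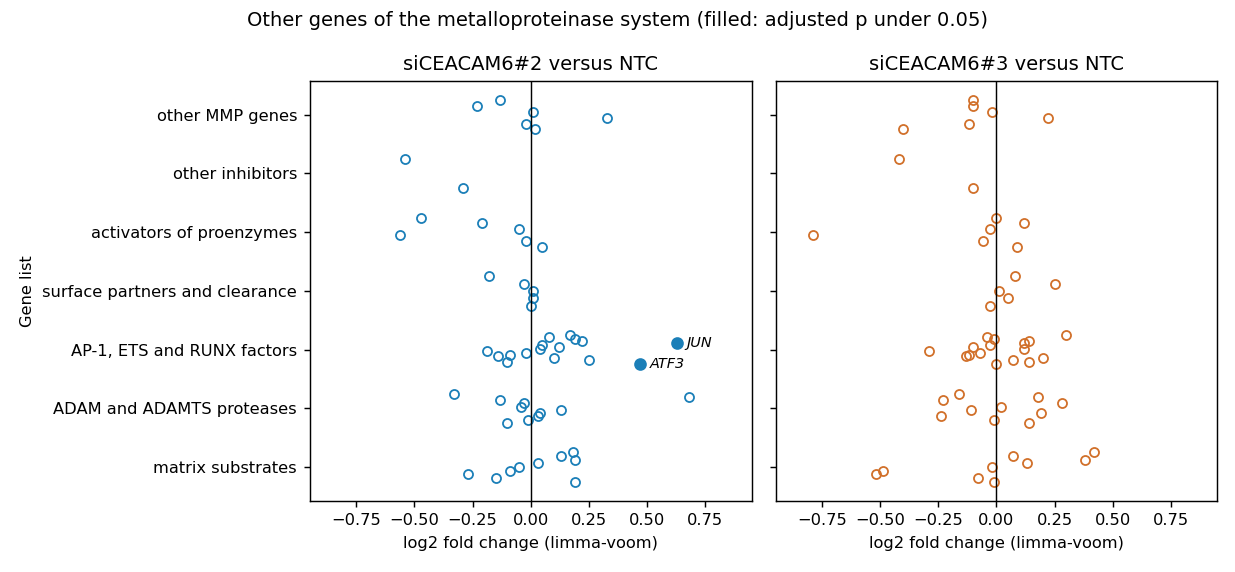
Log2 fold change against NTC (limma-voom) of the tested genes in 7 related gene lists with siCEACAM6#2 (left) and siCEACAM6#3 (right), where filled points passed an adjusted p of 0.05. JUN and ATF3 pass with siCEACAM6#2, and no point is filled with siCEACAM6#3.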

How the data were processed

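Strand-specific mRNA libraries of 12 SNU308 samples were sequenced on a DNBSEQ instrument. Per the labels, reads were trimmed with Trim Galore 0.6.4 and quantified with kallisto (given as 0.4.6) against GRCh38.p13. The GENCODE release and the summing of transcripts to genes are not given in the sources used here, and labels and methods differ on read layout and transfection reagent. The authors deposited 1 table of estimated counts and 1 of TPM per sample, each with 60617 genes. Of the values above 0, 69.3% were not whole, so the estimated counts were rounded. Ensembl IDs were matched to symbols for 60357 genes (99.6%), and the unmatched held 0.0631% of counts.

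Totals were 21799476 to 22059456 estimated counts per sample. TMM factors (0.975 to 1.02), edgeR's filter by group and limma-voom with 1 mean per group were applied to all 12 samples (R 4.3.3, limma 3.58.1, edgeR 4.0.16), with Benjamini-Hochberg adjustment over 17620 genes. CPM are scaled by TMM, and intervals use the moderated 16.2 degrees of freedom. Fits with DESeq2 1.42.0, edgeR's quasi-likelihood test, other scaling, no filter, log2(TPM + 1), log2(TPM + 0.1), sample weights, the compared groups alone, a replicate block, and each sample left out were alternatives. No sample pairs were identical. The limma-voom, edgeR and DESeq2 fits were tested on simulated data. P-values of the fits set differences between group means against the spread between replicate samples, here of 1 cell line.

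The text names the 10 genes, CEACAM6, genes of each list that passed limma-voom or had the highest 2 mean TPM, and the 5 genes most like MMP13. JUNB, ETS1, LAMA3, TIMP4, RECK, MMP11, MMP2, MMP17 and silent cluster genes were named after their values were seen. The 10 genes and the lists were chosen with earlier results of these data known, and 1 gene of the substrate list is not reported here. GENCODE 44 gave gene coordinates, and protein sequences were not used here.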

Additional observations from a re-analysis of the deposited data

Results flagged for a closer look

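Of 33 groups of 4 samples tested for a single distant sample, 2 had a gap to the nearest sample, as a share of the range, above Dixon's critical value at the 95% level, where chance gives about 1 in 20. MMP7 in siCEACAM6#2 replicate 4 was at 6.31 CPM against 7.66 to 7.79 CPM in the other replicates (ratio 0.911). TIMP1 in siCEACAM6#3 replicate 3 was at 35.9 CPM against 39 to 39.3 CPM (ratio 0.909).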

How the results depend on the processing

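With siCEACAM6#2, 0 of the 10 genes were called in each of the 11 alternatives and 12 fits without 1 sample. With siCEACAM6#3, DESeq2 and sample weights called 3, and leaving out 1 sample gave 0 in 11 of 12 fits and 3 in the other. For the average of both siRNAs, DESeq2 and sample weights called 1, and leaving out 1 sample gave 0 in 11 of 12 fits and 1 in the other. The cause was not tested. Calls over all genes ranged more widely, from 5 to 1120 with siCEACAM6#2, 0 to 382 with siCEACAM6#3, 2 to 899 for the average and 7 to 560 between the siRNAs, with the lowest counts in log2 TPM and the highest with sample weights. Without 1 sample they were 49 to 364, 2 to 258, 3 to 204 and 83 to 651.

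Signs changed for values near 0. MMP1 with siCEACAM6#3 was -0.01 with library size only and -0.031 in the log2 TPM fits. MMP28 with siCEACAM6#2 was -0.008 in log2 TPM, and MMP11 -0.175 to -0.236. ATF3 with siCEACAM6#3 was 0.001 in edgeR and 0.003 in DESeq2. Without 1 sample, ranges that crossed 0 were -0.104 to 0.168 for MMP1 and -0.07 to 0.056 for ATF3 with siCEACAM6#3, -0.241 to 0.086 for MMP10, -0.058 to 0.008 for MMP13, -0.041 to 0.078 for MMP28, -0.032 to 0.116 for TIMP2 and -0.101 to 0.091 for MMP11 with siCEACAM6#2, and -0.058 to 0.269 for the average of MMP10.

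Samples of the same replicate number deviated together weakly or not at all, with r of -0.06 to 0.224 and 2 of 12 pairs above 0.1. Samples of different numbers had r of -0.251 to 0.179, and 4 samples correlated best with their own number. Whether a number marks the same experiment in each group is not given in the sources used here, and these correlations cannot settle it. Numbers were not taken as pairs in the main fit. With a replicate block, 0 of the 10 genes were called in each comparison. The lowest limma-voom adjusted p with siCEACAM6#3 were then 0.0702 for MMP28, 0.0752 for TIMP1, 0.0762 for MMP14 and 0.0856 for MMP13. Calls over all genes were 284, 87, 118 and 349, against 221, 12, 40 and 259 without the block, and the cause was not tested. LAMA3 passed under the block with siCEACAM6#3 (limma-voom adjusted p = 0.0341) and for the average (0.0439), and JUN passed for the average (0.0409). MMP7, MMP10 and TIMP3 had the fewest counts, 70 to 189 per sample, and the part of depth in their intervals was not tested.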
